A study of Homo sapiens with 2 samples.

Results

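FOXO1, FOXO3 and FOXO4, forkhead transcription factors that growth factor signaling holds in check, and 7 of their known target genes (BCL6, TXNIP, IRS2, PIK3IP1, CCNG2, SESN1 and SESN3) were compared between parental and nilotinib-resistant (nilotinibR) K562 cells. These 10 genes, of the 20046 genes that the platform annotation names, were taken by gene symbol with every probe that carries it, which gave 15 probes. K562 is an established chronic myeloid leukemia line driven by BCR/ABL, and nilotinib is an inhibitor of that kinase. Total RNA was hybridized to HumanHT-12v4 BeadChips with 1 array for each condition, so that no difference below has a replicate array and no p-value is given. For CITED2, ID2 and ULK1, named below, the authors reported upregulation in resistant K562 cells by qPCR relative to GAPDH. NilotinibR cells had been passaged in rising nilotinib over 3 months and grew in 1 µM of the drug, whereas the parental cells were carried alongside without it. The nilotinibR sample therefore differs from the parental one in selection, in the presence of drug and in the individual culture, which cannot be told apart here.

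FOXO factors bind forkhead sites and switch on genes of cell cycle arrest, oxidant defense, autophagy and feedback on insulin signaling. When PI3K is active, AKT phosphorylates them, 14-3-3 proteins bind the phosphorylated form and the factors are kept in the cytoplasm. BCR/ABL is known to activate PI3K and AKT. Phosphorylation and location of FOXO proteins are not measured by RNA arrays. In the red cell lineage, FOXO3 is known from mice as a factor of maturation and of oxidant defense.

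In nilotinibR cells FOXO3 and FOXO4 mRNA, TXNIP and PIK3IP1 were at least 1.5-fold higher than in parental cells, and BCL6 was at least 1.5-fold lower. FOXO4 was 2.37-fold higher, PIK3IP1 1.93-fold, TXNIP 1.82-fold and FOXO3 1.81-fold as the mean of its 3 kept probes, while BCL6 was 1.64-fold lower. FOXO1, IRS2, CCNG2, SESN1 and SESN3 did not reach 1.5-fold. After background correction and quantile normalization, log2 levels were compared, and a fold is 2 raised to the nilotinibR minus parental difference. Probes were kept when they were brighter than the limit set by the dim probes on at least 1 array, and kept probes of a gene were averaged. Thus 4 of the 10 genes (40.0%) were higher and 1 (10.0%) was lower at 1.5-fold. Over all 13184 genes kept, 7.50% were higher and 8.21% lower at that fold. The median log2 difference was 0.33 for the 10 genes, or 0.25 with SESN3 at its bound, and -0.0020 for all genes. At 2-fold and this setting, 1 of the 10 genes was higher and none lower, against 2.43% and 2.78% of all genes.

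Erythroid and other K562 genes served to check the label. All 14 of the listed genes with a probe here, among them the embryonic and fetal globins HBE1 and HBG1, were above the limit. In nilotinibR cells 6 of these were at least 1.5-fold higher, including the erythroid factors TAL1 (3.69-fold) and KLF1 (2.80-fold), and GATA2, a factor of progenitors, was 3.32-fold lower. The other 7 were under 1.5-fold, among them the erythroid factor GATA1 at a log2 difference of 0.14, HBE1 at -0.09 and HBG1 at 0.09. As given above, 7.50% of all genes were higher and 8.21% lower. Of 28 markers of T cells, B cells, myeloid cells and stroma, 15 were above the limit on at least 1 array and 0 were past 1.5-fold in either direction at the reported setting, while 3 T cell genes and 1 stromal gene were lower with an offset of 16. No probe of these genes read more than 235 in parental or 186 in nilotinibR cells. The summed intensity of their 22 kept probes, background included, was 2952 and 2736. Each of the 4 lists held markers on both sides of the limit: CD3E, PAX5 and MPO, which define T, B and myeloid cells, were not above it, whereas the T cell gene CD3G read 151 and 122, the B cell gene CD22 121 and 125, and the myeloid gene LYZ 235 and 155 on its brightest probe. The part that these erythroid genes, or the cells that carry them, have in the values of the FOXO genes was not tested. In bulk RNA, fewer cells of a type and less RNA per cell cannot be told apart.

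**Figure D1:**
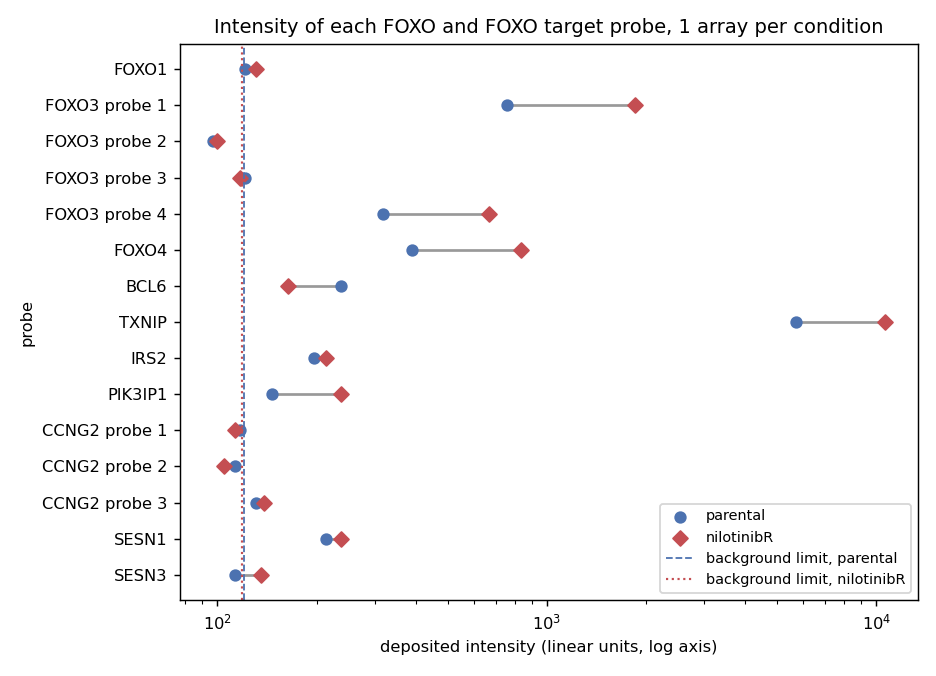
Deposited intensity (linear units on a log axis) of each of the 15 probes in parental (circles) and nilotinibR (diamonds) cells, 1 array each, with the background limit of each array as a vertical line. The TXNIP, FOXO4, PIK3IP1 and 2 of the 4 FOXO3 probes moved to the right, BCL6 moved to the left, and the FOXO1 and CCNG2 probes lay near the limits of 120 and 119.

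FOXO3, known for roles in blood stem cells and red cell precursors, was represented by 4 probes. The first (ILMN_1681703) read 754 in parental and 1847 in nilotinibR cells. The second bright probe (ILMN_1844692) read 319 and 667. Both were thus more than 1.5-fold higher in nilotinibR cells, at log2 differences of 1.40 and 1.22. The remaining FOXO3 probes carried little or no signal. One (ILMN_1712515) read 121 and 117, on either side of the limits of 120 and 119, with a log2 difference of -0.04. The other (ILMN_1687940), designed to a different transcript record, read 97.3 and 99.4, below both limits. Averaging the 3 kept probes gave a log2 difference of 0.86, and restricting the mean to the probes above the limit on both arrays gave 1.31, or 2.48-fold. FOXO3 has a near-identical copy, FOXO3B, and probe sequences were not compared, so signal from that copy cannot be told apart from FOXO3.

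FOXO4, whose gene lies on the X chromosome, read 389 in parental and 835 in nilotinibR cells on its only probe (ILMN_1712095). Its log2 difference of 1.25 was higher than that of 98.6% of all genes, and at the reported setting it alone of the 10 genes was past 2-fold. FOXO1 read 121 and 131 (ILMN_1738816), above the limits of 120 and 119. Its log2 difference was 0.20, and the gap of 10.1 units was 1.29 times the combined spread of the dim probes on the 2 arrays (7.81 units). FOXO6, the remaining family member, was at a log2 difference of 0.01, from a pair of probes that were each above the limit on a different array. FOXO6 was therefore at the edge of detection in both conditions. FOXO1 was at the edge in parental cells, 9.45 units above the mode of the dim probes, and lay 21.5 units above it in nilotinibR cells. A change in either gene was not resolved at this signal.

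TXNIP encodes the thioredoxin-interacting protein, an arrestin that binds thioredoxin and restrains glucose uptake. It is transcribed in response to both FOXO factors and glucose, the latter through MondoA (MLXIP) with MLX. TXNIP read 5684 in parental and 10609 in nilotinibR cells (ILMN_1697448), a log2 difference of 0.86. Both values were far above background, and the difference stayed between 0.86 and 0.90 over 8 alternatives. Its relative ARRDC4, an arrestin that is also induced by glucose, was 1.74-fold higher, with both probes at like differences (0.76 and 0.83). ARRDC3, another alpha-arrestin, was at -0.22. Thioredoxin itself, TXN, was 1.59-fold lower, and thioredoxin reductase, TXNRD1, was 1.93-fold lower. The 2 TXN probes read 6398 and 9011 in parental and 4045 and 6080 in nilotinibR cells. MLX was at a log2 difference of 0.08, and MLXIP was not above the limit on either array.

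PIK3IP1 is a transmembrane inhibitor of PI3K, the kinase upstream of AKT. It read 146 in parental and 238 in nilotinibR cells (ILMN_1719986). The parental value lay 34.3 units above the mode of the dim probes and the nilotinibR value 128 units above it. The difference was 0.95 on the log2 scale with the offset of 50 used here and 1.27 (2.42-fold) with an offset of 16, because a larger offset shrinks the fold of a dim gene. IRS2, an adaptor that carries the insulin signal to PI3K and that FOXO factors induce as feedback, read 197 and 214 (ILMN_2083469), a log2 difference of 0.15. Its relative IRS1 was not above the limit on either array, at 106 on both.

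BCL6, a zinc finger repressor best known from germinal center B cells, moved the opposite way. It read 238 in parental and 164 in nilotinibR cells (ILMN_1737314), a log2 difference of -0.71. BCL6 is known as a gene that FOXO factors activate and that STAT5 represses in BCR/ABL leukemia cells. The fold was 1.64 here, 1.90 with an offset of 16, and under 1.5 on the deposited scale and without background correction, both of which keep the background in the ratio. Among BCL6 corepressors and genes it is known to bind, 10 of 12 with a probe were kept, 1 of them higher and 2 lower at 1.5-fold. Of all genes, 7.50% were higher and 8.21% lower. ID2, an inhibitor of helix-loop-helix factors, was 3.36-fold higher. CD69, an activation marker of lymphocytes, read 300 and 1387 in parental cells and 113 and 115, below the limit, in nilotinibR cells on its 2 probes. It was thus at least 7.87-fold lower at the reported setting, from probes that differed widely (-1.90 and -4.24), and its log2 difference was -2.47 without background correction. CDKN1A was 2.78-fold lower. The median of this list was -0.15, or -0.08 with 3 genes at their bound.

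CCNG2 encodes cyclin G2, an atypical cyclin that rises as cells leave the cycle. Its 1 kept probe (ILMN_2228732) read 131 and 138, a log2 difference of 0.12 and a gap of 0.890 times the combined background spread. The other 2 probes were below both limits, reading 117 and 113 in parental and 113 and 105 in nilotinibR cells. CCNG1, the related cyclin G1, which p53 induces, was at a log2 difference of 0.39.

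Sestrins restrain mTORC1 when leucine is scarce and take part in the defense against peroxides. SESN1 read 213 in parental and 238 in nilotinibR cells (ILMN_1800626), a log2 difference of 0.20. SESN3, the sestrin most closely tied to FOXO factors, read 113 and 136 (ILMN_1694027). The parental value was not above the limit, so the difference is a bound, at least 1.23-fold higher at the reported setting. With an offset of 16 the measured log2 difference of SESN3 was 0.82, past 1.5-fold, against 0.45 here. SESN2, which the stress factor ATF4 induces, was at -0.04. No sestrin thus passed 1.5-fold at the reported setting. In the pathway that sestrins act on, 20 of 22 genes were kept, 4 of them higher and 2 lower. The shares over all genes were 7.50% and 8.21%. PRKAB1, a subunit of AMP-activated kinase, was 1.90-fold higher and NPRL3, a subunit of the GATOR1 complex that restrains mTORC1, 1.82-fold. DDIT4, another inhibitor of mTORC1 that hypoxia and stress induce, was 2.89-fold lower, and SEH1L of the opposing GATOR2 complex was 1.72-fold lower.

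**Figure D2:**
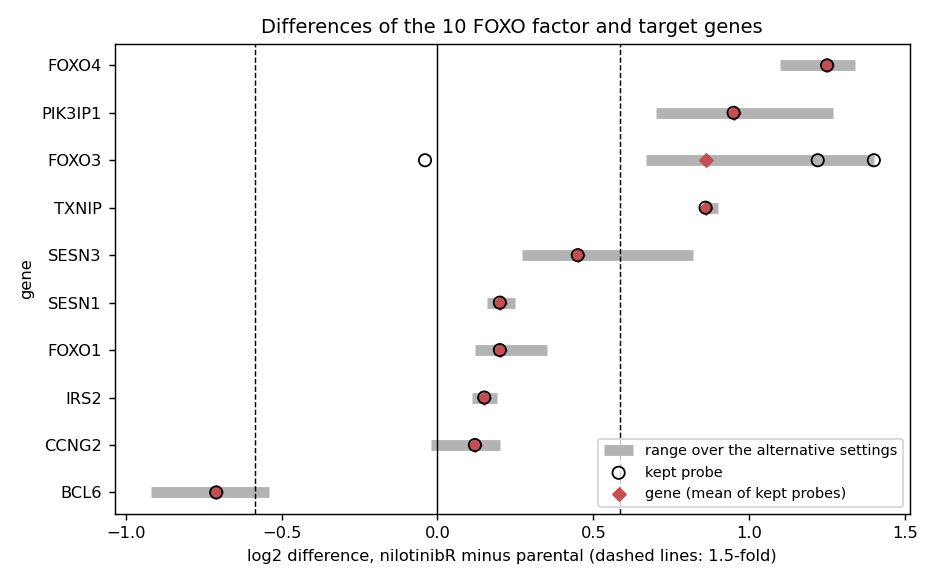
Log2 difference (nilotinibR minus parental, x axis) of each of the 10 genes (y axis), with the gene value as a diamond, its kept probes as open circles, the range over the alternative settings as a grey bar and 1.5-fold as dashed lines. FOXO4, PIK3IP1, FOXO3 and TXNIP lie to the right of 1.5-fold over their whole range, BCL6 spans the line between -0.92 and -0.54, and 1 FOXO3 probe lies apart from the others at -0.04.

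In the values used here, the only measurement made more than once is a gene with several probes. Over 2098 genes with 2 probes above the limit on both arrays, the SD of a probe's log2 difference within a gene was 0.25. The differences of FOXO1, IRS2, CCNG2 and SESN1, between 0.12 and 0.20, were smaller than this. SESN3, dim on the parental array, lay between at 0.45, and those of FOXO4, PIK3IP1, FOXO3, TXNIP and BCL6 were at least 0.71 in size. The 3 kept probes of FOXO3 itself lay further apart than this SD, at 1.40, 1.22 and -0.04. Since 8 of the 10 genes have a single probe, this comparison borrows its spread from other genes, and it holds no spread between cultures. For dim genes it also depends on the offset. With an offset of 16, FOXO1 was at 0.35, while CCNG2 was at 0.20, IRS2 at 0.19 and SESN1 at 0.25. Of the 12 kept probes, 5 were higher and 1 was lower at 1.5-fold, against 6.70% and 7.14% of the 25584 probes kept.

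**Figure D3:**
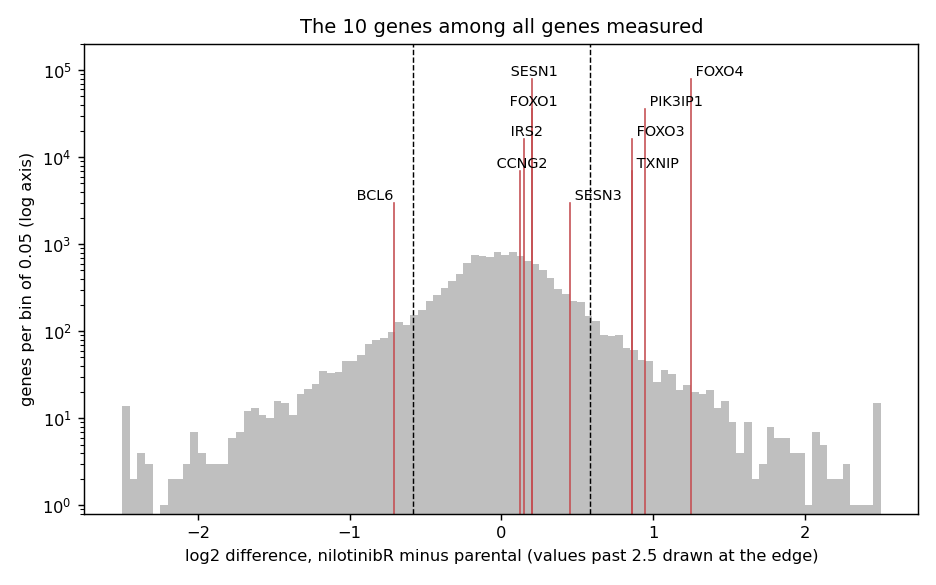
Histogram of the log2 difference (nilotinibR minus parental, x axis) over 13184 genes (log y axis, bins of 0.05), with the 10 genes as red lines of arbitrary height and 1.5-fold as dashed lines. FOXO4, at 1.25, exceeds 98.6% of the genes and TXNIP, at 0.86, exceeds 96.6%. CCNG2 exceeds 64.4% of the genes, IRS2 67.6%, FOXO1 72.7% and SESN1 73.0%.

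The sequences upstream of the 10 genes were searched because FOXO factors bind a short forkhead motif, GTAAACA. RefSeq start sites on GRCh38.p14 gave 18 windows for the 10 genes, each from 250 bases before to 50 bases after a start. GTAAACA was found on either strand for 3 of the 10 genes, TXNIP, PIK3IP1 and FOXO4. It was found in 4.19% of all 27305 genes with a window (3.42% of 35116 windows). The 10 genes were taken as FOXO factors and known targets and have more windows per gene, so these shares are not like for like. No window of FOXO3 or of BCL6 held these exact letters. Near forms were not searched, for example ATAAACA in a FOXO3 window and TGTTTGT in a BCL6 window. Whether a match goes with the difference of a gene was not tested. The related motif CAAAACA, found in insulin response elements, was present only at IRS2 among the 10 genes, and in 6.05% of all genes. The E-box CACGTG was present only at CCNG2, and in 8.77% of all genes. Imperfect E-boxes were not searched, such as CACGAG, which the TXNIP window holds, so the search does not address the glucose response of TXNIP. These matches describe letters in a window and are not measured binding sites. The windows that hold a forkhead match are shown with every match found in capitals, 5′ to 3′ on the strand of the gene.
In the TXNIP window (GRCh38.p14, chr1:145996530-145996829, minus strand), the capitals are GTAAACA, 124 bases before the start.
TXNIP: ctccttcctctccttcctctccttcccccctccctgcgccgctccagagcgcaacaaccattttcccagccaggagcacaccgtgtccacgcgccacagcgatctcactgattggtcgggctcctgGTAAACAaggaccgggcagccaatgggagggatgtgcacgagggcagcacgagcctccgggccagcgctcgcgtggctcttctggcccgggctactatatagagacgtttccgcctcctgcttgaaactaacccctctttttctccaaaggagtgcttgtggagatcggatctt
In the PIK3IP1 window (GRCh38.p14, chr22:31292439-31292738, minus strand), the capitals are TGTTTAC, the reverse complement of GTAAACA, from base 17 of the transcript.
PIK3IP1: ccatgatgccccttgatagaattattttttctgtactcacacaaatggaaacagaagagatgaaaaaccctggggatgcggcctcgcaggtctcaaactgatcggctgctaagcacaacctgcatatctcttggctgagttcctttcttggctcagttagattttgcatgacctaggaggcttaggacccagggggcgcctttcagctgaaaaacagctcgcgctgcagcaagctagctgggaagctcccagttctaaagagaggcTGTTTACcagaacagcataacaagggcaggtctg
In the FOXO4 window (GRCh38.p14, chrX:71095601-71095900, plus strand), the capitals are GTAAACA from base 24 of the transcript.
FOXO4: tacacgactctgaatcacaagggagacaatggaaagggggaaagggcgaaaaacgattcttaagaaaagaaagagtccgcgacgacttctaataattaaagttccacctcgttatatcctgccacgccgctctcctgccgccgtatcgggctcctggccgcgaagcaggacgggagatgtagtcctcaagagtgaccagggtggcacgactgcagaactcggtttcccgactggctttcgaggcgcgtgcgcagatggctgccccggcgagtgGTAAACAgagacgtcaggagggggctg
The IRS2 window (GRCh38.p14, chr13:109786534-109786833, minus strand) holds the related motif, and IRS2 differed by a log2 value of 0.15 only. Its capitals are TGTTTTG, the reverse complement of CAAAACA, 40 bases before the start.
IRS2: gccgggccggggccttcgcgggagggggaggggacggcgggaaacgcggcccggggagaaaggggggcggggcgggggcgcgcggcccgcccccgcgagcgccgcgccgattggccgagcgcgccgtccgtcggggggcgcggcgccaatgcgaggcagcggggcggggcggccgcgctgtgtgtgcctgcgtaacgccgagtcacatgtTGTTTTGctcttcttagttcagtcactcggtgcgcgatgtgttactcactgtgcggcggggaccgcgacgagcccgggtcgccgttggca

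Beyond these genes, 6 lists of further FOXO targets, grouped by role, held 62 other genes, of which 49 were kept. At 1.5-fold 7 (14.3%) were higher and 5 (10.2%) were lower, against 7.50% and 8.21% of all genes. Their median log2 difference was 0.05. The further targets thus lay on both sides. Whether they differ from the 10 genes was not tested.

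Genes of oxidant defense included 7 other kept genes, 3 of them higher and none lower. Over all genes, 7.50% were higher and 8.21% lower. CITED2, a coregulator of CBP and p300 and not itself an antioxidant enzyme, was 4.40-fold higher. CAT, which encodes the peroxide-degrading enzyme catalase, read 844 and 299 in parental and 2084 and 603 in nilotinibR cells on its 2 probes, 2.44-fold higher. SELENOP, a secreted selenium carrier, was 2.36-fold higher by its kept probe, which read 135 and 255, but its log2 difference fell from 1.24 to 0.54, under 1.5-fold, when a second probe below both limits was averaged in. SOD2, the mitochondrial superoxide dismutase and a classical FOXO3 target, was at a log2 difference of -0.56, and past 1.5-fold in 4 of 8 alternatives, at -0.67 with an offset of 16. The mitochondrial peroxiredoxin PRDX3 was at -0.39. The mitochondrial thioredoxin TXN2 was at -0.10.

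Of the 12 genes of autophagy and protein breakdown, all kept, 3 were higher and none lower. Shares over all genes were 7.50% higher and 8.21% lower. ULK1, the kinase that starts autophagy, was 2.21-fold higher, ATG14, a subunit of the autophagy lipid kinase, 2.07-fold and PINK1, a kinase that marks damaged mitochondria, 1.65-fold, or a log2 difference of 0.54, under 1.5-fold, without background correction. FBXO32, the ubiquitin ligase atrogin known from muscle wasting, was at -0.04.

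Among targets of cell cycle arrest and DNA damage, 1 of 12 other kept genes was higher and 2 were lower, against 7.50% and 8.21% of all genes. BTG1, an antiproliferative factor, was 1.51-fold higher, at the edge of the threshold, and was under it in 4 of 8 alternatives, at 0.46 with 75th percentile scaling. CDKN1A, the CDK inhibitor p21, read 452 in parental and 191 in nilotinibR cells, 2.78-fold lower, and the zinc finger factor KLF6 was 1.96-fold lower. CDKN1B, the CDK inhibitor p27 and a well known FOXO target, was at 0.50 and the pocket protein RBL2 at 0.52, both under 1.5-fold.

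Of 7 kept cell death targets, none was higher and 1 was lower. For each list in this paragraph, the shares over all genes were 7.50% higher and 8.21% lower. BNIP3, a mitophagy receptor also induced by hypoxia, read 3896 and 1524, 2.49-fold lower. BCL2L11, which encodes BIM, was at 0.33, and FASLG was not above the limit. In insulin signaling and metabolism, none of 7 other kept genes was higher and 2 were lower, namely NAMPT, which makes the precursor of NAD, at 2.69-fold and the pseudokinase gene TRIB1 at 1.91-fold. The liver targets PCK1, IGFBP1 and PPARGC1A and the pyruvate dehydrogenase kinase PDK4 were not above the limit on either array. Among lymphocyte targets none of 4 other kept genes passed 1.5-fold, with KLF2 at -0.43 and S1PR1 at 0.23, while IL7R was not above the limit.

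Genes that FOXO factors are known to lower, directly or through other factors, were examined as a separate list of 5. CCND2 was 5.13-fold lower, CCND1 4.01-fold and MYC 3.36-fold, while the mitotic kinase PLK1 was at -0.18 and the forkhead factor FOXM1 at 0.47. At 1.5-fold, 8.21% of all genes were lower and 7.50% higher. All 5 listed genes were kept, 3 being lower and none higher, with a median of -1.75. This list, like the others, was chosen with earlier results of these data known. These genes also answer to STAT5, ERK and other signals.

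**Figure D4:**
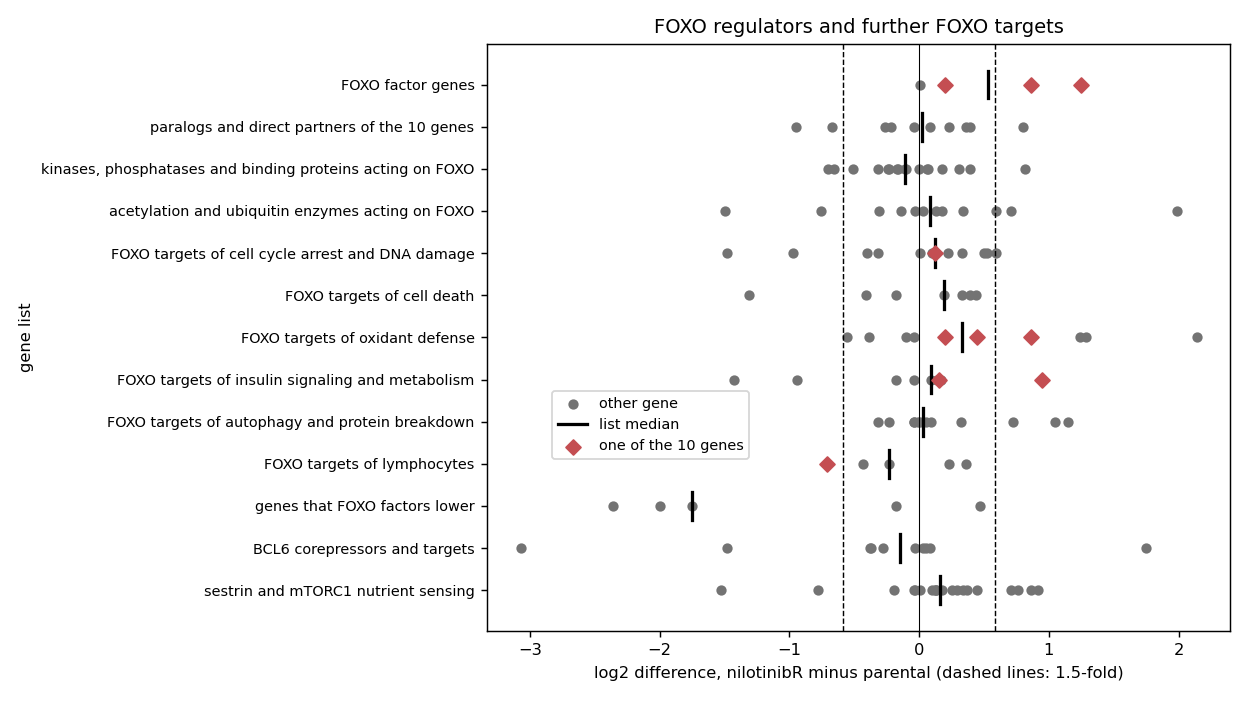
Log2 difference (nilotinibR minus parental, x axis) of each kept gene in lists of FOXO factors, regulators and targets (y axis), with the 10 genes as diamonds, other genes as dots, the list median as a bar and 1.5-fold as dashed lines. The lists lie on both sides of 0, with medians between -0.23 and 0.53 except for the genes that FOXO factors lower, at -1.75.

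The genes that act on FOXO proteins were mostly under 1.5-fold. Of 21 kinases, phosphatases and binding proteins with a probe, 17 were kept, 1 was higher and 2 were lower, with a median of -0.11. For this list and the next, the shares over all genes were 7.50% higher and 8.21% lower. AKT1 read 914 and 632 in parental and 771 and 571 in nilotinibR cells on its 2 probes, a log2 difference of -0.16, and AKT2 was not above the limit. SGK1, a kinase that also phosphorylates FOXO3, was at -0.32. The 14-3-3 genes, whose products hold FOXO factors in the cytoplasm, differed among themselves, with YWHAH 1.76-fold higher, YWHAG 1.62-fold lower and YWHAB 1.58-fold lower, the last at -0.50 and under 1.5-fold by its brightest probe. Of 12 genes for acetylation and ubiquitin enzymes that act on FOXO factors, all kept, 3 were higher and 2 lower. KAT2B, the acetyltransferase PCAF, read 554 and 1979, 3.96-fold higher, and the deacetylase SIRT2 was 1.63-fold higher. The acetyltransferase CREBBP was 1.51-fold higher, at the edge of the threshold. Without background correction SIRT2 was at 0.52, and CREBBP in the deposited values was at 0.48, both under 1.5-fold. PRMT1, which methylates FOXO1 next to its AKT site, was 2.83-fold lower, and the deubiquitinase USP7 was 1.70-fold lower.

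GAPDH, a common reference gene, was 1.89-fold lower over 3 probes, so that a ratio to GAPDH would raise each of the differences above by 0.92 on the log2 scale. BCL6, the only lower gene among the 10, would then be at 0.21, on the other side of 0 and not past 1.5-fold.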

How the data were processed

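The authors hybridized biotin-labeled RNA to HumanHT-12v4 BeadChips, processed scans in GenomeStudio and named robust multichip average in RMA Express 1.0 for normalization. The deposited intensities are linear with background left in (92.8 to 21126 parental, 88.2 to 22044 nilotinibR); how many of those steps they include is not known. Another 4 columns of scanner values carry names that match no sample and were not used, so the neqc alternative was not run.

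In R 4.3.3 with limma 3.58.1, intensities were corrected with normexp (offset 50), quantile normalized and log2 transformed. The limit of each array (120 and 119) is the level that 5% of a normal background, fitted to the dim probes, would exceed. Symbols came from the platform annotation (1 symbol for 30113 probes, several for 8, none for 17202), updated through RefSeq; 30074 matched. A gene above the limit on 1 array only is given as a bound: on the dim array its level was set to its own value or to the dimmest value past the limit, whichever was higher. The steps were run on simulated data. The outcome is not given here, and that run does not show whether a 1.5-fold difference in a dim gene is recovered. No test was possible with a single array for each condition, which also limits the precision.

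The 10 genes, the lists and their tests were chosen with earlier results of these data known. Named were all 10 genes, FOXO6, SESN2, CCNG1, IRS1, ARRDC4, GAPDH and up to 2 genes highest and 2 lowest past 1.5-fold in each list; other list genes were named for their role after their values were seen. Some list genes are not analysed here.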

Additional observations from a re-analysis of the deposited data

How the results depend on the processing

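No paired analysis was possible because each condition has a single array, and no replicate could be dropped. Of 79 gene values of the 10 genes under 8 alternatives, 75 stayed within 0.25 log2 of the reported value (the SD between probes of a gene), and 0 of the called ones changed sign; CCNG2, not called, fell to -0.02 without a filter on dim probes. The values that moved further were FOXO3 at 1.31 above the limit on both arrays and at 1.40 by its brightest probe, and PIK3IP1 at 1.27 and SESN3 at 0.82 with an offset of 16. FOXO3, FOXO4, TXNIP and PIK3IP1 passed 1.5-fold in all 8 alternatives and BCL6 in 6. The median of the 10 genes (0.33) was 0.59 with an offset of 16, 0.22 without background correction, 0.21 in the deposited values and 0.20 above the limit on both arrays. With an offset of 16, 1571 of all genes were higher and 1654 lower, and 10 of the other FOXO targets were higher and 8 lower. The count of lower genes among the 10 was 0 without background correction, 0 in the deposited values on the log2 scale and 0 at 2-fold. At 2-fold, 1 of the 10 was higher, and 321 of all genes were higher and 366 lower. Subtracting the mode of the dim probes with no offset, an alternative chosen after seeing the data, gave 1.90 for PIK3IP1, -1.21 for BCL6, 1.19 for FOXO1 and 0.55 for CCNG2, the last pair from probes within 28.2 units of the mode. FOXO1, CCNG2, SESN3 and PIK3IP1 lay close to the background on at least 1 array.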
